A study of Mactra quadrangularis with 6 samples.

Results

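The genes described here are those of the surf clam Mactra quadrangularis whose deposited description names an interferon-related or GIMAP-type protein. They were picked by a text search for interferon, GTPase IMAP (GIMAP), STING, RIG-I (DDX58), IFIH1, viperin, oligoadenylate synthase, cyclic GMP-AMP synthase and guanylate-binding protein, with the species name removed, and 69 of 25145 genes matched. The data are messenger RNA counts from the mantle, the sheet of tissue that secretes the shell. The series compares clams of different shell colours, and the labels give no colour for these 6 libraries. The data comprise 3 libraries labelled ocean acidification stress, called acidified here, and 3 libraries labelled normal seawater control. The series text speaks of high pH for the acidified animals, so what the treated water was like is not settled, and the labels do not say how long it lasted or whether libraries came from separate animals. All p-values therefore measure the spread between these samples, which may be technical.

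In vertebrates, interferons are secreted signals that infected cells release, and they switch on a large set of antiviral genes in their neighbours. The sensors upstream are RIG-I-like helicases, which bind viral RNA in the cytoplasm, and cGAS, which binds DNA there and makes a messenger that the membrane protein STING detects. Interferon regulatory factors carry the signal to the nucleus, and proteins such as viperin, oligoadenylate synthases and IFI44 act downstream. GIMAP proteins are GTP-binding proteins known in vertebrates for the survival of immune cells and expanded in several molluscs. The names used below are those of the best-described relative, and no clam gene in the set is itself described as an interferon.

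By family the 69 genes comprised 25 IFI44-like genes, 16 GIMAP-like genes, 8 RIG-I-like helicases (7 named for DDX58 and 1 for IFIH1), 5 oligoadenylate synthases, 3 interferon regulatory factors, 2 STING genes, 2 cGAS-like genes, 2 IFI27-like genes and 1 viperin. The other 5 have interferon in their names but belong to none of these families. They are an interferon-related developmental regulator and a protein that binds interferon regulatory factor 2. The rest are an interferon-inducible activator of the RNA-dependent protein kinase, a gamma-interferon-inducible lysosomal thiol reductase and an interferon-inducible GTPase. No guanylate-binding protein was found. The best-described relative was molluscan for 48 genes and vertebrate for 19. For GIMAP-like genes it was molluscan in 3 of 16, and for IFI44-like genes in 21 of 25. A GTP-binding term was attached to all 16 GIMAP-like genes and to 24 of the 25 IFI44-like genes, the exception being Mve04G004480.

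Many of these genes lie side by side. Counting genes of one family with at most 10 other genes between neighbours, 44 of the 69 fell into 12 runs. The longest run held 6 IFI44-like genes on chromosome 2 (11756666 to 11999742), and another run of 6 GIMAP-like genes lay on chromosome 4 (9869294 to 10347359), with 4 more on the same chromosome at 11113713 to 11348767. All 5 oligoadenylate synthase genes lay in 168.5 kb of one contig. The sources used name no genome build, and positions are those of the deposited table. Neighbouring copies can share reads, so the split of counts within a run is uncertain.

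Levels spanned a wide range. Mean FPKM over the 6 libraries, the scale on which genes of unequal length can be compared, was under 1 for 25 genes, from 1 to 10 for 30 and 10 or more for 14. The IFI44-like gene Mve14G007110 was the most abundant at a mean FPKM of 143, above 97.9% of all genes, and it held 44.2% of the summed FPKM of its family. The IFI27-like gene Mve03G018640, related to a small mitochondrial membrane protein, followed at a mean FPKM of 102. Next came the IFI44-like gene Mve03G013660 at a mean FPKM of 53.0 and the STING gene Mve15G010390 at 42.3. The low end was mostly GIMAP-like: 11 of their 16 genes did not pass the filter on low counts, and none of those 11 reached an FPKM above 1.16 in any library.

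The filter on low counts left 53 of the 69 genes for the test, out of 17790 of 25145 genes in all. The 16 set aside had summed counts over the 6 libraries of 0 to 64, and the 53 tested had 62 to 87249. Values of single libraries are given as CPM, counts brought to a common library size after TMM scaling (trimmed mean of M values, edgeR's correction for composition between libraries). Fold changes are log2 of acidified over control on that scale, with the standard error.

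With edgeR's quasi-likelihood F test, adjusted over all 17790 genes by Benjamini-Hochberg, 0 of the 53 passed an adjusted p of 0.05, as did 0% of all genes. At an unadjusted p under 0.05, 2 members were higher in acidified libraries, beside 9.29% of all genes, and 4 were lower, beside 8.13% of all genes. These are 3.77% and 7.55% of the 53, so neither share is above that of all genes, and both directions make 6 of 53 beside 17.4% of all genes. DESeq2 called 1 member, the IFI44-like gene Mve04G004480, of 41 for which it gave an adjusted p, beside 8.4% of all genes. The acidified libraries all lay above the control libraries for 5 members, beside 12.2% of all genes, and all below for 4, beside 13.4%. Mve04G004480, the DESeq2 call, is also among the 2 higher members and these 5. It passed the filter through the acidified libraries alone, so it had to differ. The median log2 fold change was -0.016 over the 53 members and -0.0031 over all genes tested. It was above 0 for 25 members, beside 49.8% of all genes, and below 0 for 28.

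**Figure D1:**
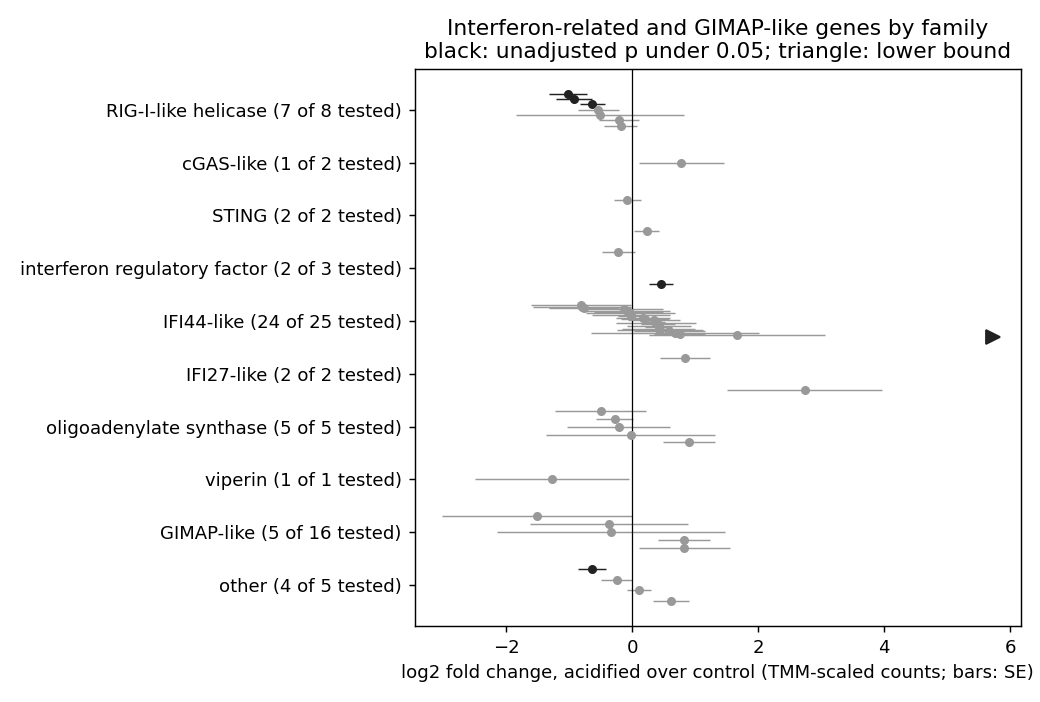
Log2 fold change (acidified over control, horizontal axis) of each tested gene, one row of points per family, with bars for the standard error. All 7 RIG-I-like helicases tested lie left of 0, IFI44-like genes lie on both sides, and the triangle marks the lower bound of Mve04G004480, which had no counts in controls.

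The scaling matters for direction. With library size as the only scaling, the median of all genes moved to -0.33 and that of the members to -0.32, so the directions given here are relative to the bulk of genes. Fewer cells of a type and less RNA per cell cannot be told apart in these bulk samples. As a check of the tissue, 26 of 55 genes named for shell-forming proteins (tyrosinase, perlucin, chitin synthase, carbonic anhydrase, nacrein and shell matrix) passed the filter, and 4 of the 55 were at 0 in every library. Their summed level was 2599 to 3692 CPM in acidified libraries and 2085 to 3174 CPM in control libraries. Genes named for markers of haemocytes, the clam's blood and immune cells, summed to 1191 to 1439 CPM in acidified libraries and 904 to 1131 CPM in control libraries, without overlap. On summed FPKM they overlapped, at 331 to 390 in acidified libraries and 275 to 394 in control libraries, with control replicate 3 the highest. The allograft inflammatory factor gene alone gave 302, 336 and 474 CPM in acidified libraries and 238, 123 and 196 CPM in control libraries. The separation on CPM rests largely on it. Most genes matched were laccase or integrin alpha genes, and whether these are limited to haemocytes was not tested. Of these 26 marker genes 22 were tested, and none was at 0 in every library. At an unadjusted p under 0.05, 3 were on the higher side, which were allograft inflammatory factor (Mve05G011480, 0.998), an integrin alpha-3-like gene (Mve12G008680, 1.19) and an integrin alpha-9 gene (Mve12G008750, 1.04), each as a log2 fold change. On the lower side were 2, a laccase-2-like gene (Mve06G011390, -0.78) and another integrin alpha-3-like gene (Mve12G011320, -1.10). The part of blood cells in these results was not tested. Genes matched by names of muscle, ciliated cell, digestive gland and germ line proteins overlapped between groups in their summed CPM and FPKM. The digestive gland search also caught tubulin polyglutamylases and inter-alpha-trypsin inhibitor heavy chains, and the muscle search a calponin-homology protein, so those 2 sums are not of markers alone. Total counts ran from 28482358 to 37066703 in acidified libraries and from 31929388 to 32992500 in control libraries.

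The RNA sensors lay on the lower side in acidified libraries. All 7 RIG-I-like helicases tested had a log2 fold change below 0, where 50.2% of all genes did, and their median was -0.54. At an unadjusted p under 0.05, 3 of the 7 were lower, beside 8.13% of all genes, and 0 higher, beside 9.29%. The adjustment was passed by 0 of the 7 in edgeR, as by 0% of all genes, and by 0 in DESeq2, beside 8.4% of all genes. The DDX58-like gene Mve13G002380 (chromosome 13, 7323706 to 7348984) had 2.78, 2.32 and 2.54 CPM in acidified libraries and 4.65, 4.46 and 6.31 CPM in control libraries. Every acidified library lay below every control library. The log2 fold change was -1.01 ± 0.30 (SE; edgeR adjusted p = 0.171).

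The IFIH1-like gene Mve09G012910 (chromosome 9, 41839775 to 41854311), whose human relative is the long-RNA sensor MDA5, had 3.70, 2.82 and 3.82 CPM in acidified libraries and 6.37, 7.85 and 5.41 CPM in control libraries. The groups did not overlap, at a log2 fold change of -0.92 ± 0.28 (adjusted p = 0.179 in edgeR). The most abundant helicase of the family per length, the DDX58-like gene Mve13G005680 (chromosome 13, 18020722 to 18059496) at a mean FPKM of 6.94, had 26.6, 18.9 and 21.1 CPM in acidified libraries and 32.4, 33.0 and 37.5 CPM in control libraries. Again the groups were apart, at -0.63 ± 0.20 (adjusted p = 0.191 in edgeR). Leaving out acidified replicate 2 raised the unadjusted p of Mve13G005680 in edgeR to 0.0535, and leaving out control replicate 2 raised that of Mve09G012910 to 0.0551.

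The other 4 helicases tested overlapped between groups. The DDX58-like gene Mve13G000090 had 24.1, 17.2 and 17.7 CPM in acidified libraries and 25.9, 28.6 and 13.6 CPM in control libraries, with control replicate 3 the lowest of all. The DDX58-like gene Mve04G004960 lay at 7.35 to 10.7 CPM in acidified libraries and 8.91 to 13.7 CPM in control libraries, with a log2 fold change of -0.18 ± 0.27. Without control replicate 1 its log2 fold change was 0.024, so its sign rests on that library. Chromosome 19 carried a run of 3 DDX58-like genes between 3985987 and 4230763, which were Mve19G001330 at -0.54 ± 0.33, Mve19G001220 at -0.51 ± 1.33 and Mve19G001280, which did not pass the filter. With library size as the only scaling, or FPKM, each tested helicase stayed below 0. The median of all genes was lower in those fits too, at -0.33 with library size and -0.11 on log2(FPKM + 1). Staying below 0 there is therefore little check of the sign. With library size the median of the helicases was -0.85. In the 6 fits that left out 1 library each, 6 or 7 of the 7 were below 0.

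The relatives of DHX58, or LGP2, another sensor of this helicase family in vertebrates, were not matched by the search and fell in a wider list of antiviral signalling genes. Of 5 such genes 4 were tested, and all 4 lay below 0, beside 50.2% of all genes, 2 of them at an unadjusted p under 0.05, beside 8.13% of all genes lower. Of the 5, 4 sit beside the helicases already named: Mve09G012920 is the next gene after Mve09G012910, and Mve13G002410 lies 83.7 kb from Mve13G002380 with 1 gene between. Mve09G012920 had 32.6, 31.1 and 29.5 CPM in acidified libraries and 61.8, 48.9 and 37.1 CPM in control libraries, at a log2 fold change of -0.66 ± 0.23. Mve13G002410 had 0.82, 0.89 and 0.80 CPM in acidified libraries and 1.05, 2.41 and 5.25 CPM in control libraries, at -1.80 ± 0.63. The acidified libraries were close together for both genes while the control libraries were spread, and the groups did not overlap. In the remaining DHX58-like genes tested the groups overlapped. Mve19G001290 stood at -0.96 ± 0.66, and Mve14G001930 was near 0, at -0.073 ± 0.31.

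**Figure D2:**
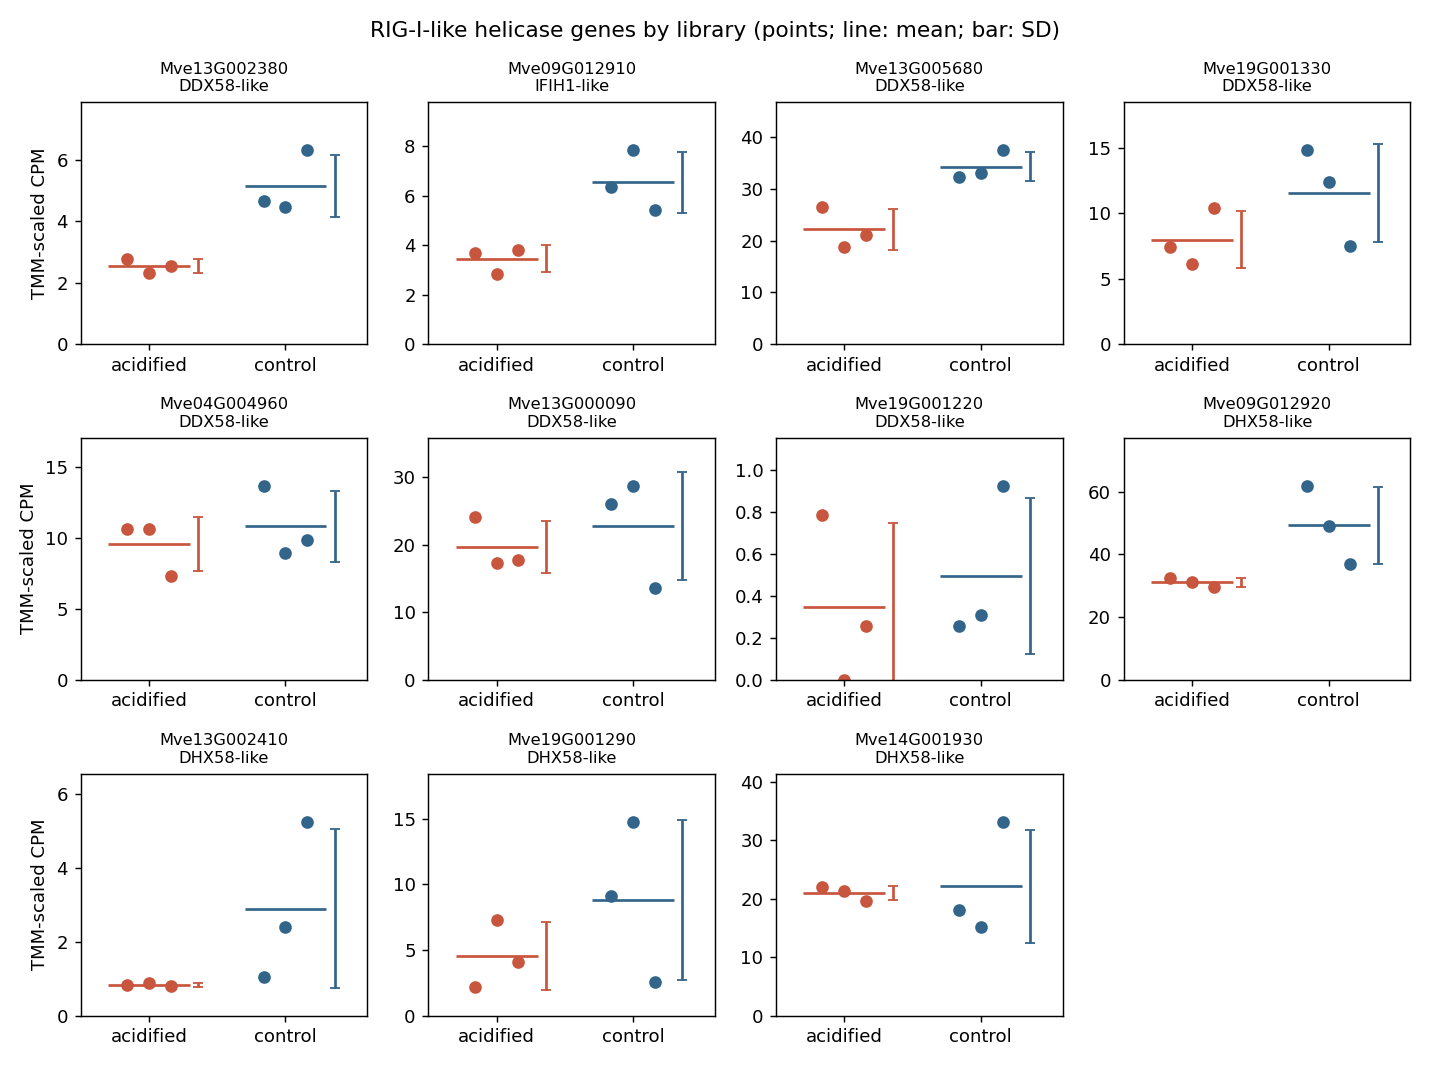
TMM-scaled CPM (vertical axes, from 0) in the 3 acidified (left) and 3 control (right) libraries for the 7 RIG-I-like helicases tested and the 4 DHX58-like genes tested. Points are libraries, lines means and bars the SD (ended at 0 where it runs below), and the groups are apart in 3 of the 7 helicases and in Mve09G012920 and Mve13G002410.

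Transcript length moved with these results. All genes tested were sorted by transcript length into 10 classes of equal size, and the median log2 fold change was 0.29 in class 1, the shortest, and -0.36 in class 10, the longest. The 7 helicases lay in classes 6 to 9, where the medians ran between 0.027 and -0.26 and 6.63% to 15.1% of genes were lower at an unadjusted p under 0.05. Mve13G002380 was in class 8, with a median of -0.15 for all genes there, and Mve09G012910 in class 7, with -0.060. The part of length in the lower level of the helicases was not tested.

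Downstream and beside the sensors, the antiviral signalling list (kinases TBK1 and JAK2, STAT, TRAF and MyD88 adaptors, RNA editors, Dicer, RNF213, SAMHD1 and others) held 53 genes, of which 49 were tested. At an unadjusted p under 0.05, 11 were lower and 0 higher in acidified libraries, 22.4% beside 8.13% of all genes lower. In edgeR 0 passed an adjusted p of 0.05, as did 0% of all genes. DESeq2 called 5 of 43 with an adjusted p, beside 8.4% of all genes. The acidified libraries all lay below the control libraries for 18 of the 49, or 36.7% beside 13.4% of all genes, and the list's median log2 fold change was -0.42. Its genes are long: 26 of the 49 were in classes 9 and 10, where 18.0% of all genes were lower at an unadjusted p under 0.05, and 6 of those 26 were. Of the 23 in classes 1 to 8, 5 were lower, where 5.68% of all genes were. Leaving out acidified replicate 2 gave 7 genes on the lower side, against 11 with all libraries. The highest of the 6 libraries was control replicate 3 for 24 of the 49, 49.0% beside 18.4% of all genes. For some of the 11 that library stood well above the other controls, as for the STAT gene Mve07G001680 (14.0, 18.2 and 31.2 CPM in control libraries). At that threshold 23 of the list were lower when counts were scaled by library size alone, where 3141 of 17790 genes were, and on log2(FPKM + 1) 17 were, where 3602 of 24052 genes were. The part of length in this list was not tested. Patterns for DDX3 and TRAF3 also caught DDX31, the splicing helicase DDX39B and the ciliary TRAF3-interacting protein 1, none of which were at an unadjusted p under 0.05. The list also held genes named for translation initiation factor 2-alpha kinases 1, 3 and 4, and none named for the RNA-dependent protein kinase. Those for kinase 1 (Mve06G013230, unadjusted p of 0.0337 in edgeR) and kinase 3 (Mve13G003910, 0.0368) were among the 11 lower.

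The member of that list with the smallest p was an RNA editase, Mve07G013450, a relative of enzymes that turn adenosine to inosine in double-stranded RNA. It had 2.64, 1.85 and 1.40 CPM in acidified libraries and 6.004, 5.996 and 5.54 CPM in control libraries, a log2 fold change of -1.57 ± 0.33 (adjusted p = 0.12 in edgeR). A TRAF2 gene, Mve14G003050, an adaptor of TNF receptors, had 6.80, 3.67 and 2.67 CPM in acidified libraries and 9.15, 16 and 13.9 CPM in control libraries, at -1.57 ± 0.40. The DDX3X-like gene Mve15G007330, an RNA helicase that in mammals also binds TBK1, had 28.1, 32.1 and 19.1 CPM in acidified libraries and 49.7, 52.0 and 45.6 CPM in control libraries, at -0.89 ± 0.23. In each of the 3 the groups were apart. On the higher side no gene of the list was at an unadjusted p under 0.05, and those with the smallest p were a TRIM25-like gene (Mve11G000630, 0.95 ± 0.61), a TBK1 gene (Mve08G003460, 0.27 ± 0.20) and a TRAF6 gene (Mve09G012150, 0.44 ± 0.38). Without acidified replicate 2, Mve11G000630 stood at 1.37 (unadjusted p of 0.0151 in edgeR). In the other 13 alternatives it kept its sign and its side of that threshold. The sign of Mve08G003460 flips with library size as the only scaling (-0.071) and on FPKM.

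**Figure D3:**
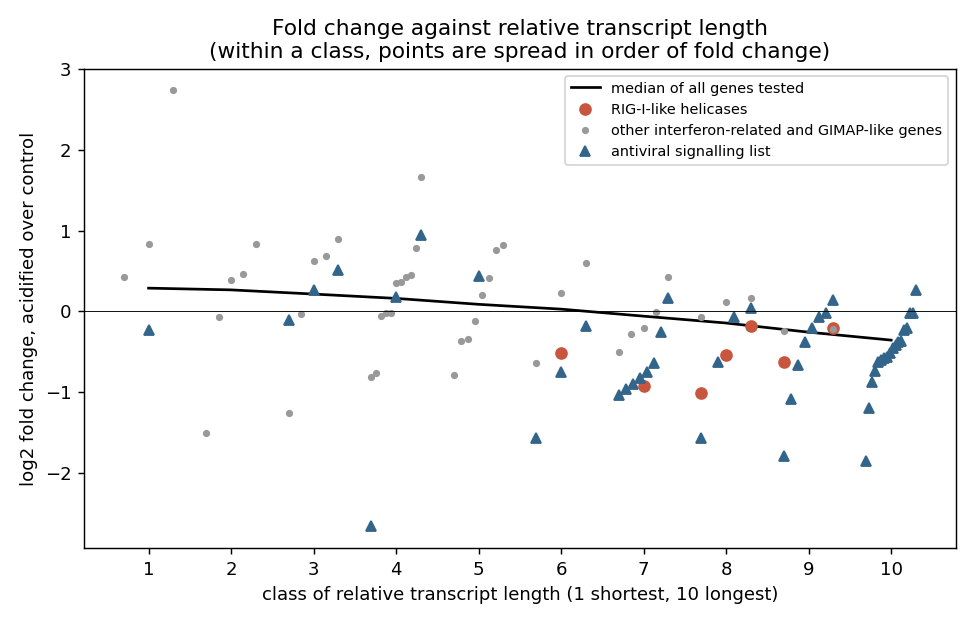
Log2 fold change (acidified over control, vertical axis) against the class of relative transcript length (horizontal axis, 10 classes, 1 shortest) for RIG-I-like helicases, the other tested members without Mve04G004480, and the antiviral signalling list, with the median of all genes tested as a line. The line ends at -0.36 in class 10, all 7 helicases lie below 0, and 40 of the 49 genes of the list do.

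In the DNA-sensing branch the groups overlapped for each gene tested. The STING gene Mve15G010390 had 168, 125 and 165 CPM in acidified libraries and 167, 128 and 188 CPM in control libraries, a log2 fold change of -0.074 ± 0.22. Its sign rests on single libraries, being 0.044 without acidified replicate 2 and 0.050 without control replicate 3. The second STING gene, Mve15G007310, had 16.2, 15.1 and 18.9 CPM in acidified libraries and 15.6, 13.7 and 13.5 CPM in control libraries, at 0.23 ± 0.19. It stood at -0.091 when scaled by library size alone. Both STING genes varied by at most 1.498-fold between the highest and the lowest library.

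The cGAS-like gene Mve04G003550, named for the enzyme that makes the messenger STING detects, was low, at a mean FPKM of 0.78. It had 2.53, 0.85 and 1.11 CPM in acidified libraries and 1.42, 0.50 and 0.69 CPM in control libraries, which overlapped. The other cGAS-like gene, Mve08G004920, had counts in acidified replicate 2 alone, at 0.15 CPM, and was not tested.

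Among the transcription factors, the interferon regulatory factor 2 gene Mve01G021120 (chromosome 1, 68308229 to 68319793) had 37.2, 37.9 and 44.3 CPM in acidified libraries and 24.7, 30.8 and 31.3 CPM in control libraries. The groups did not overlap on CPM, and the log2 fold change was 0.46 ± 0.19 (edgeR adjusted p = 0.270). On FPKM they overlapped, at 28.45 to 31.78 in acidified libraries and 23.27 to 32.36 in control libraries. In each of the 6 fits without 1 library the unadjusted p was above 0.05, from 0.0534 to 0.135, and with library size as the only scaling it was 0.545. The gene lay in length class 2, where the median of all genes was 0.27. The summed haemocyte markers were higher in acidified libraries on CPM, largely through allograft inflammatory factor, but overlapped on FPKM. The part of either was not tested. The interferon regulatory factor 5/8-like gene Mve06G011770, a relative of factors active in immune cells, had 73.2, 64.5 and 80.3 CPM in acidified libraries and 61.0, 76.9 and 115 CPM in control libraries, which overlapped. Without control replicate 3, the highest, its log2 fold change was 0.076, against -0.22 with all libraries. The remaining gene, Mve15G003800, had at most 0.25 CPM in any library and was not tested.

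IFI44-like genes were the largest family, 24 of 25 tested, and they lay on both sides of 0. Of the 24, 15 lay above 0 and 9 below, with a median log2 fold change of 0.35, and 1, Mve04G004480, was at an unadjusted p under 0.05. With library size as the only scaling the median was 0.0084, which is 0.33 above the median of all genes. On log2(FPKM + 1) it was -0.058, and 11 of the 24 lay above 0. On CPM the groups were apart for 4 genes, all higher in acidified libraries, which were Mve02G004080, Mve03G013660, Mve03G013680 and Mve04G004480. That is 4 of 24, beside 12.2% of all genes. On FPKM the groups overlapped for Mve02G004080, Mve03G013660 and Mve03G013680. Mve04G004480 passed the filter through the acidified libraries alone, so it had to differ.

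The largest separation was in Mve04G004480 (chromosome 4, 12156452 to 12165137). It had 42, 104 and 239 counts in acidified libraries, or 1.495, 4.02 and 7.60 CPM, and 0 counts in each control library. Against a floor of 3 counts per control library it was at least 52.8-fold higher. Its adjusted p was 0.119 in edgeR and 1.23e-08 in DESeq2. Because it passed the filter through the acidified libraries alone, neither value is support for a difference. Its transcript lay in length class 1, its description came from a salmon, and it had no other gene of the family nearby. Neither neighbouring gene had its pattern. The next gene before it, a chymotrypsin-like elastase (Mve04G004470), had 101, 90 and 75 counts in acidified libraries and 81, 98 and 103 in control libraries. The next gene after it, an orexin receptor-like gene (Mve04G004510) 177 kb away, had 0 counts in each acidified library and 16, 7 and 12 in control libraries, and did not pass the filter.

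The 3 most abundant IFI44-like genes were Mve14G007110, Mve03G013660 and Mve14G007240. Mve14G007110 (chromosome 14) had 244, 400 and 770 CPM in acidified libraries and 279, 510 and 468 CPM in control libraries, with acidified replicate 3 the highest, and its log2 fold change of 0.17 ± 0.43 was -0.38 without that library, -0.05 without control replicate 1 and -0.19 with library size as the only scaling. Mve14G007240 had 28.1, 15.99 and 48.5 CPM in acidified libraries and 9.998, 13.8 and 47.1 CPM in control libraries, so replicate 3 of each group was high. Its log2 fold change was -0.10 without acidified replicate 3 and 1.37 without control replicate 3 (unadjusted p of 0.028 in edgeR), against 0.38 with all libraries. Mve03G013660 (chromosome 3) was close within each group, at 97.0, 100.5 and 117 CPM in acidified libraries and 82.6, 81.8 and 80.6 CPM in control libraries. There the groups were apart on CPM, at 0.36 ± 0.17 (adjusted p = 0.318 in edgeR). On FPKM they overlapped, at 53.81, 50.25 and 55.85 in acidified libraries and 51.75, 50.89 and 55.47 in control libraries. The log2 fold change of Mve03G013660 was 0.034 with library size as the only scaling and 0.016 on log2(FPKM + 1).

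Control replicate 3 stood apart for some neighbouring copies. The adjacent genes Mve11G001690 and Mve11G001700, chosen after their values were seen, had 23.3 and 10.2 CPM in that library, and at most 7.55 and 4.07 CPM in the other 5. Both lay below 0, at -0.81 ± 0.80 and -0.79 ± 0.77. Without control replicate 3, 22 of the 24 IFI44-like genes tested lay above 0, against 15 with all libraries, and the family's median was 0.42. The median over all members tested in that fit was 0.28, against -0.016 with all libraries, and that of all genes was 0.017. The highest of the 6 libraries was acidified replicate 3 for 10 of the 24 IFI44-like genes, 41.7% beside 20.2% of all genes, and control replicate 1 for 0 of the 24, beside 14.5% of all genes.

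**Figure D4:**
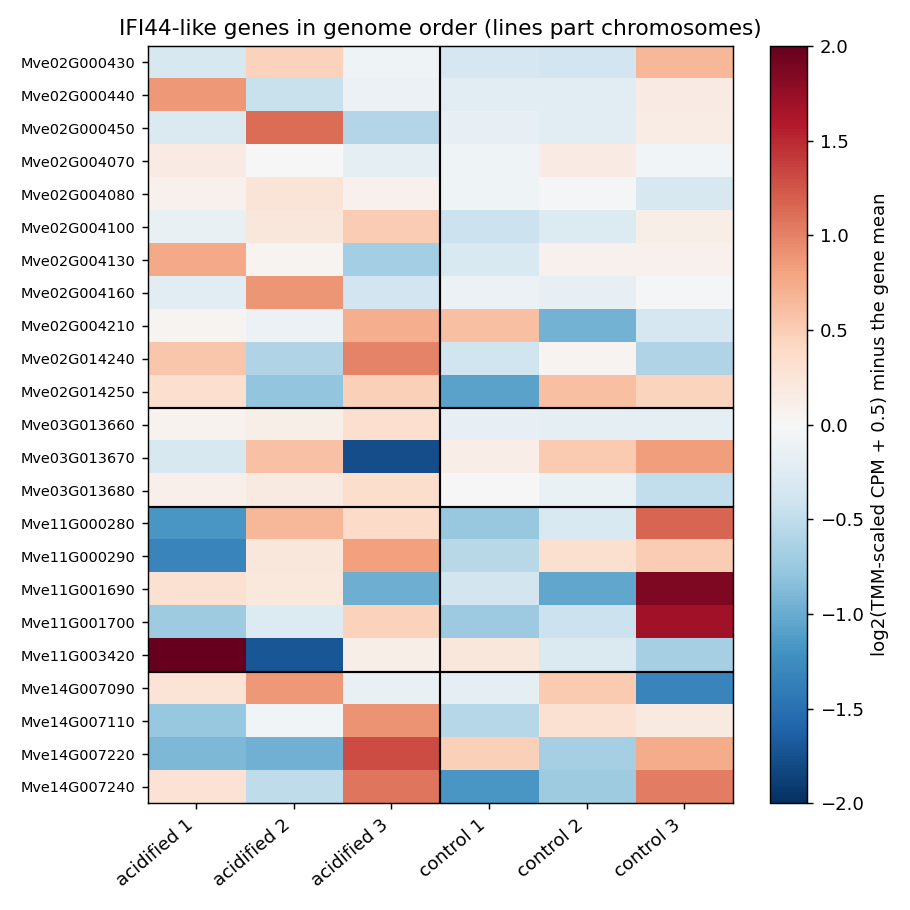
Level of 23 IFI44-like genes in each library (columns, acidified left), as log2(TMM-scaled CPM + 0.5) minus the gene's mean over the 6 libraries, in genome order, with Mve04G004480 left out and the colour scale ended at 2 and -2. The deep red cells of Mve11G001690 and Mve11G001700 in control replicate 3 and the pale rows of Mve02G004070 and Mve03G013660 show how unevenly the copies vary.

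Other downstream genes also overlapped between groups. The IFI27-like gene Mve03G018640 had 46.5, 85.4 and 82.8 CPM in acidified libraries and 25.3, 31.2 and 63.9 CPM in control libraries, overlapping through 1 control library, with a log2 fold change of 0.84 ± 0.40. The second IFI27-like gene, Mve11G002810, had 0.14, 6.18 and 1.34 CPM in acidified libraries and 0.14, 0.31 and 0.69 CPM in control libraries, a 43.6-fold range that rested on acidified replicate 2. Both had unadjusted p-values above 0.05 in edgeR (0.0719 and 0.0583) and under it in DESeq2 (0.0403 and 0.0180). The log2 fold change of Mve03G018640 was 1.06 without acidified replicate 1 and 1.34 without control replicate 3, where the unadjusted p in edgeR was 0.0373 and 0.00572. Without acidified replicate 2 it was 0.68 and without acidified replicate 3 it was 0.72, at unadjusted p-values in edgeR of 0.189 and 0.171. The log2 fold change of Mve11G002810 was 3.29 without acidified replicate 1 (unadjusted p of 0.0100 in edgeR) and 0.95 without acidified replicate 2, against 2.74 with all libraries. Both transcripts were in length class 1, where the median of all genes was 0.29. Its part was not tested.

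Oligoadenylate synthases make the short adenosine chains that in mammals activate the RNA-degrading enzyme RNase L. The synthase 2-like gene (Mveptg000231l_1_ERROPOS1200000+G000280) had 6.16, 11.2 and 14.3 CPM in acidified libraries and 7.73, 5.94 and 3.32 CPM in control libraries, a log2 fold change of 0.90 ± 0.41 with overlap of acidified replicate 1. Without acidified replicate 1 it was 1.16 and without control replicate 1 it was 1.19, at unadjusted p-values in edgeR of 0.0225 and 0.0415. Without acidified replicate 2 it was 0.84 and without acidified replicate 3 it was 0.62, at unadjusted p-values in edgeR of 0.135 and 0.208. The other 4, all named for synthase 1A, lay between -0.50 and -0.024. The synthase 1A gene Mveptg000231l_1_ERROPOS1200000+G000220 had 7.73, 6.14 and 2.04 CPM in acidified libraries and 5.16, 2.38 and 14.9 CPM in control libraries. Without control replicate 3 it stood at 0.49, against -0.50 with all libraries. The synthase 1A gene Mveptg000231l_1_ERROPOS1200000+G000300 had 8.90, 15.0 and 10.46 CPM in acidified libraries and 13.9, 17.6 and 10.1 CPM in control libraries.

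Viperin, a radical enzyme that makes a chain-ending nucleotide in mammals, was scarce in this tissue. The viperin-like gene Mve12G006070 had 0, 0.46 and 0.70 CPM in acidified libraries and 0.48, 1.597 and 0.74 CPM in control libraries, at a mean FPKM of 0.56 and a log2 fold change of -1.26 ± 1.22. The groups overlapped.

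GIMAP-like genes were near the limit of detection in most libraries, and the 5 tested varied widely within groups. Mve04G003610 had 14.2, 0.50 and 0.10 CPM in acidified libraries and 19.5, 21.0 and 1.66 CPM in control libraries. It was high in acidified replicate 1 and in control replicates 1 and 2, low in the other 3, and spanned a 220-fold range. Its log2 fold change was -1.51 ± 1.503 (edgeR adjusted p = 0.652). Without acidified replicate 1 it was -5.59, with an unadjusted p of 0.00565 in edgeR, so the overlap rests on that library. Mve04G003700, chosen after its values were seen, had 0.53, 5.25 and 0 CPM in acidified libraries and 5.44, 0 and 1.85 CPM in control libraries, so each group held a library without counts and a library above 5 CPM.

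On chromosome 16, Mve16G011480 and Mve16G011490 lay in a run of 4. Mve16G011480 had 6.16, 2.47 and 2.77 CPM in acidified libraries and 0.42, 2.998 and 2.98 CPM in control libraries, at 0.83 ± 0.73. Mve16G011490 had 6.91, 3.24 and 4.39 CPM in acidified libraries and 1.93, 2.47 and 3.83 CPM in control libraries, at 0.82 ± 0.42, and at 1.14 without control replicate 3 (unadjusted p of 0.0423 in edgeR). Without acidified replicate 1 it stood at 0.47 (unadjusted p of 0.320 in edgeR). For both, acidified replicate 1 was the highest and control replicate 1 the lowest. The median coefficient of variation of the 5 tested GIMAP-like genes was 88.2% within acidified libraries and 69.4% within control libraries, beside 29.9% and 24.7% for all genes tested and 19.4% and 23.2% for the helicases. Summed counts over the libraries ran from 62 for Mve16G011440 to 1915 for Mve04G003610 among these 5 genes. Mve04G003610 had 399, 13 and 3 counts in acidified libraries and 687, 750 and 63 in control libraries. The part of counting error in this spread was not tested.

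**Figure D5:**
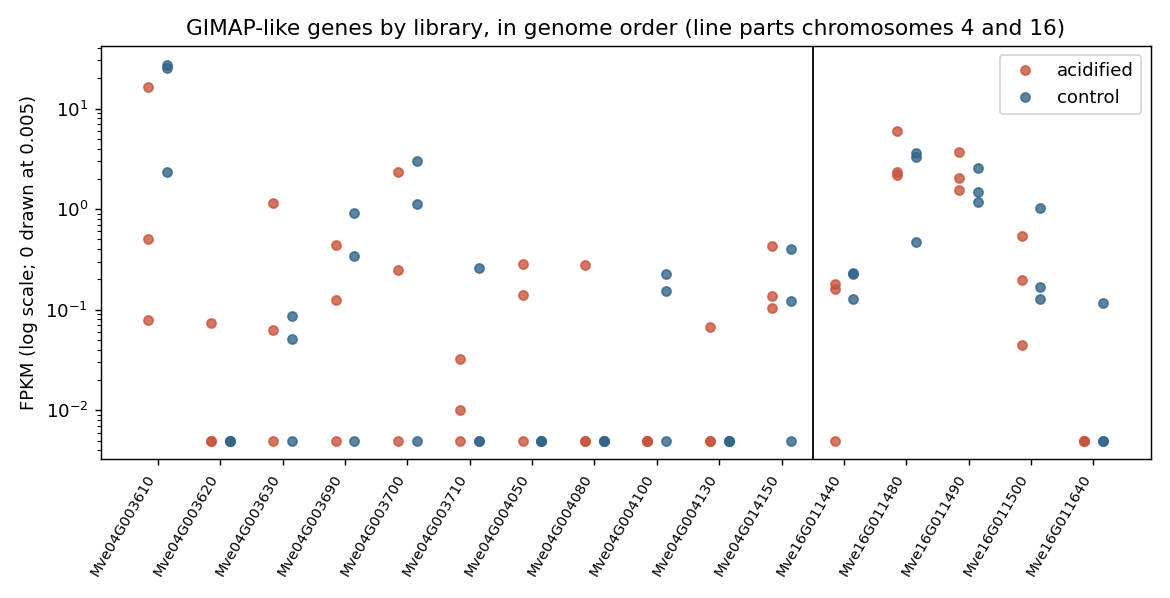
FPKM (log axis, 0 drawn at 0.005) of the 16 GIMAP-like genes in genome order, with 3 acidified (left) and 3 control (right) points per gene. Mve04G003610 reaches an FPKM of 27.2 in one control library and 0.08 in one acidified library, and most of the other genes have libraries at 0.

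Among the genes outside these families was the interferon-related developmental regulator 1-like gene Mve08G000510, whose mammalian relative acts in growth and differentiation. It had 21.1, 34.7 and 27.2 CPM in acidified libraries and 42.6, 42.7 and 43.9 CPM in control libraries. The groups were apart, at a log2 fold change of -0.64 ± 0.22 (edgeR adjusted p = 0.215). Without acidified replicate 1, acidified replicate 3 or control replicate 3 the unadjusted p was 0.0567, 0.0518 and 0.0501. The kinase activator Mve12G001100 had 125, 117 and 163 CPM in acidified libraries and 144, 206 and 130 CPM in control libraries, which overlapped, at a log2 fold change of -0.24 ± 0.24. It stood at -0.56 when scaled by library size alone (unadjusted p of 0.0401 in edgeR). The gene for a protein that binds interferon regulatory factor 2, Mve02G007200, had 45.1, 34.2 and 47.7 CPM in acidified libraries and 40.2, 39.8 and 37.6 CPM in control libraries, at 0.11 ± 0.19, and at -0.20 with library size as the only scaling. The thiol reductase Mve18G006660, a lysosomal enzyme of antigen processing in vertebrates, had 12.7, 18.5 and 15.7 CPM in acidified libraries and 8.21, 13.8 and 8.60 CPM in control libraries, at 0.62 ± 0.28. It was chosen after its values were seen. The interferon-inducible GTPase Mve02G005530 had at most 0.35 CPM and was not tested.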

How the data were processed

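Per the labels' protocols, poly(A) RNA was selected from Trizol extracts and made into strand-marked paired-end libraries. The submitters' processing notes name cutadapt 1.9, HISAT2 2.2.1, StringTie 2.1.6, DESeq2 and edgeR. No genome build is named in the sources used. The authors deposited, per the file headers, raw counts and FPKM per gene and library. The same table has 12 columns of libraries outside the listed samples, which were not used. Genes were tested on the deposited counts with edgeR 4.0.16 (R 4.3.3; filterByExpr, TMM, glmQLFit and glmQLFTest on group alone), fitted on all genes with Benjamini-Hochberg adjustment. The standard error was derived from the F statistic. DESeq2 1.42.0 and limma 3.58.1 on log2(FPKM + 1) served as alternatives. Procedures were tested on simulated data. Relative transcript length came from the ratio of count to FPKM and is known up to 1 constant. The filter set aside 7355 genes. No label says that the replicate number pairs libraries, so it was not used as a block in the main test. Same-numbered libraries did not deviate together (correlations of 0.00894, -0.0435 and -0.00667). No row of the table lacked a gene name.

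The members, families and lists were chosen with earlier results of these data known. Named are up to 10 members per direction with the smallest unadjusted p under 0.05, the 3 most abundant of each family of more than 3 genes, all genes of smaller families, members counted in 1 group alone and 3 genes per direction of the antiviral signalling list. Other named members were chosen after their values were seen.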

Additional observations from a re-analysis of the deposited data

How the results depend on the processing

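Of the alternatives, 14 were run. With library size as the only scaling, members higher at an unadjusted p under 0.05 numbered 1 against 2, the members' median was -0.32 and 23 genes of the antiviral signalling list were lower against 11. DESeq2 called 1 member (Mve04G004480) and 5 genes of the antiviral list, beside 8.4% of all genes. It put 5 members on the higher side at an unadjusted p under 0.05, where 1926 of 24052 genes were. With limma on FPKM, 1 member was higher with either pseudocount and with the filter at a mean FPKM of 1. The antiviral list had 17 lower with a pseudocount of 1 and 18 with 0.1. The members' median was -0.25 with a pseudocount of 0.1 and -0.26 with the filter, which also gave 7 lower members.

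Leaving out each library in turn gave 1 to 5 members higher, 3 to 5 lower and a median of -0.033 to 0.28, highest without control replicate 3. It gave 7 to 12 lower and 0 to 1 higher genes of the antiviral list, the 1 without acidified replicate 2. In the fit with a replicate block, 3 members were higher and 5 lower, 9 genes of the antiviral list were lower and 0 were called. No label says whether the numbers pair the libraries. In that fit Mve04G003610 stood at -3.11 and Mve03G018640 at 0.90, both at an unadjusted p under 0.05, and Mve01G021120 at 0.46, above it.

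Signs turned for the named genes given below, none of them at an unadjusted p under 0.05 in edgeR with all libraries. With library size scaling Mve15G007310 stood at -0.091, Mve02G007200 at -0.20, Mve14G007110 at -0.19 and Mve08G003460 at -0.071. On FPKM with a pseudocount of 1, with or without the filter, they stood at -0.10, -0.22, -0.28 and -0.074, and with 0.1 at -0.11, -0.24, -0.28 and -0.075. The median of all genes was -0.33 with library size scaling, against -0.0031 with TMM. On FPKM it was -0.11 with a pseudocount of 1, -0.23 with the filter and -0.28 with 0.1. With each library left out in turn, Mve15G010390 ran from -0.21 to 0.050, Mve14G007110 from -0.38 to 0.47, Mve14G007240 from -0.10 to 1.37, Mve04G004960 from -0.30 to 0.024, Mve06G011770 from -0.40 to 0.076 and Mveptg000231l_1_ERROPOS1200000+G000220 from -0.92 to 0.49. The cause of these shifts was not tested. In all, 387 of 446 values of named genes kept their direction and their side of the threshold. Of the others, 24 turned in sign, 19 moved under the threshold and 16 moved above it. Low counts limit the GIMAP-like family most, with 11 of 16 genes not tested.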
